A study of Mus musculus with 18 samples.

Results

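The genes described here are 44 genes of the machinery that docks secretory granules at the plasma membrane of islet cells and fuses them with it. They comprise 9 synaptotagmins, 10 SNARE proteins, 4 SNARE partners of the Sec1/Munc18 and tomosyn families, 6 Rab GTPases, 6 Rab effectors, 7 priming factors and complexins, and 2 proteins of SNARE disassembly. The list was chosen by gene name, with earlier results of these data known. For each gene the probe set with exactly 1 gene symbol was taken, or, where a gene had several, that of highest mean level. All 44 were measured, among 22180 genes in all.

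Islets were taken from C57BL/6 mice of both sexes at 16 weeks of age, and total RNA (250 ng per sample) was labelled with biotin and hybridised to 18 Affymetrix whole-transcript arrays. The series addresses what constitutive activity of NF-kB inducing kinase (NIK) does in beta cells, which both adaptor proteins TRAF2 and TRAF3 hold in check. There were 6 groups of 3 arrays: RIPCre; TRAF3loxP/loxP mice, RIPCre; TRAF2loxP/loxP mice and floxed littermates as controls, each fed a high-fat diet (HFD, 45% of the energy as fat, for 8 weeks from 8 weeks of age) and each fed chow. In RIPCre the rat insulin promoter drives Cre recombinase, so the deletion is directed to beta cells while whole islets were measured. All knockouts carried RIPCre; the labels name neither the floxed gene of the controls nor whether they carried Cre. The genotypes follow the sample labels, because the text of the series names TRAF2 for both knockouts. The labels do not state that each sample was a separate animal, so p-values measure the spread between these samples.

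Insulin granules are carried to the membrane and tethered there by Rab3 and Rab27 GTPases and their effectors. They are then primed by Munc13 and CAPS proteins and fuse when a granule SNARE pairs with a pair of membrane SNAREs, under the control of calcium sensors of the synaptotagmin and Doc2 families. Tomosyns hold SNAREs back, complexins clamp or promote the assembled complex, and NSF with alpha-SNAP takes it apart afterwards.

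Values are given on the log2 scale as deposited, with a log2 fold change written as the change ± its standard error from limma, fitted over all 6 groups. A gene is said to have risen or fallen where its p, after Benjamini-Hochberg adjustment across the 22180 genes, was under 0.05. Array medians over all probe sets, including those without a symbol, lay between 4.80 and 4.96, and no member's mean lay below the lowest of them. Doc2b and Rims1 were dim all the same: their means of 5.66 and 5.12 lay below the median of the means of the 22180 genes. Of 12 comparisons, 14 members passed in at least 1 and 30 passed in none. Because whole islets were measured, fewer cells of a type and less RNA per cell cannot be told apart. Traf2 itself read 6.94, 7.15 and 6.90 in TRAF2 knockouts on HFD, against 6.98, 7.03 and 6.46 in controls on HFD, and 7.50, 7.23 and 7.22 in TRAF2 knockouts on chow, against 7.16, 7.34 and 7.04 in controls on chow. It was therefore not lower in the islets labelled TRAF2 knockout, and their genotype rests on the labels; where its probes lie relative to the floxed part was not analysed here. Its log2 fold change in TRAF2 knockouts was 0.17 ± 0.14 on HFD (limma adjusted p = 0.975) and 0.14 ± 0.14 on chow (limma adjusted p = 0.98).

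On chow, TRAF3 knockout islets had lower levels than control islets of the GTPases Rab3a and Rab3b, the Rab27 effectors Sytl4, Sytl5, Exph5 and Mlph, the priming factors Cadps and Doc2b, the complexin Cplx2 and the synaptotagmin Syt3. The SNAREs Stx4a and Vamp8 were higher. In this comparison 10 members fell, where 4.69% of all genes fell, and 2 members rose, where 6.33% of all genes rose. In either direction 12 members passed (27.3% of the 44, with 11.0% of all genes passing). The median log2 fold change was -0.28 over the members and -0.01 over all genes. The 3 knockout and 3 control arrays did not overlap for 22 members, a pattern shown by 31.0% of all genes.

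**Figure D1:**
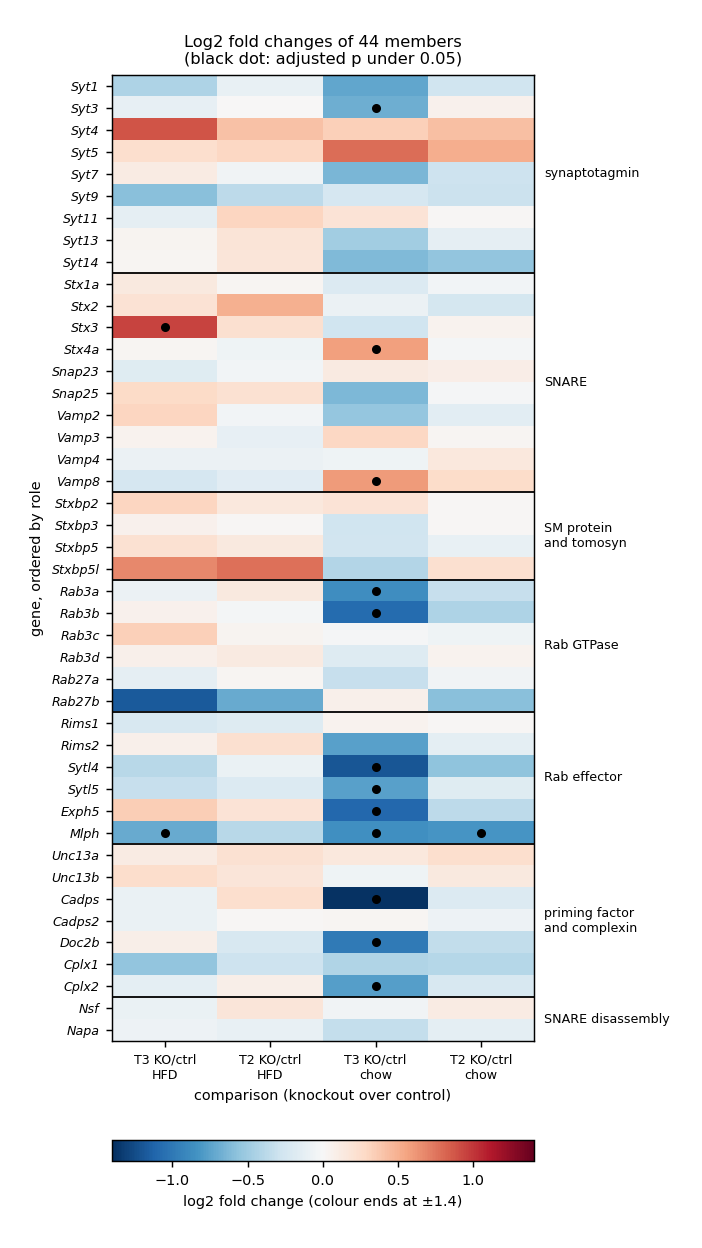
Log2 fold changes of the 44 members (rows, ordered by role) in the 4 comparisons of knockout over control (columns; T3 KO is the TRAF3 knockout, T2 KO the TRAF2 knockout, ctrl the control). Blue is lower and red higher in the knockout, and a black dot marks an adjusted p under 0.05; 12 of the dots are in the TRAF3 knockout column on chow, 2 in that on HFD and 1 in the TRAF2 knockout column on chow.

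Of the 6 Rab effectors, 4 fell in chow TRAF3 knockouts, and the median change of the 6 was -0.81. Sytl4 (granuphilin), the Rab27a effector that docks insulin granules on syntaxin 1A, read 8.25, 8.73 and 7.74 in the knockouts, against 9.45, 9.63 and 9.22 in the controls. This was a 2.29-fold fall (-1.19 ± 0.25, adjusted p = 0.00676), with every knockout array below every control array. Exph5 (Slac2-b), another Rab27 effector, read 6.47, 6.72 and 5.89 in the knockouts, against 7.37, 7.77 and 7.24 in the controls, a change of -1.10 ± 0.25 (adjusted p = 0.0111). Mlph (melanophilin), which links Rab27a on melanosomes to myosin Va in pigment cells, read 7.20, 6.82 and 7.09 in the knockouts, against 8.06, 7.83 and 7.80 in the controls, a change of -0.86 ± 0.15 (adjusted p = 0.00302). Sytl5, a synaptotagmin-like Rab27 effector, read 8.90, 9.03 and 8.34 in the knockouts, against 9.78, 9.50 and 9.28 in the controls, a change of -0.77 ± 0.20 (adjusted p = 0.0241). None of these 3 overlapped between the groups either. Rims2, the Rab3-binding scaffold of the release site, was also lower in all 3 knockout arrays (-0.76, with a 95% interval of -1.37 to -0.14), but did not pass (adjusted p = 0.113). Rims1, its paralog, had a log2 fold change of 0.05, with an interval of -0.24 to 0.33.

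Among the 6 Rab GTPases, 2 fell and the other 4 did not pass. Rab3b read 8.05, 8.08 and 7.74 in the TRAF3 knockouts on chow, against 9.34, 9.01 and 8.75 in the controls, a 2.11-fold fall (-1.08 ± 0.26, adjusted p = 0.0144). Rab3a, the Rab3 form best known from synaptic vesicles and insulin granules, read 8.89, 9.17 and 8.32 in the knockouts, against 9.91, 9.69 and 9.39 in the controls, a 1.83-fold fall (-0.87 ± 0.21, adjusted p = 0.0145). For both, all knockout arrays lay below all control arrays. Rab27a, the GTPase that binds Sytl4, Sytl5, Exph5 and Mlph, had a log2 fold change of -0.32 with overlapping arrays (95% interval -0.69 to 0.05, adjusted p = 0.29). Rab3c, Rab3d and Rab27b had log2 fold changes of -0.01, -0.18 and 0.07, with overlapping arrays in each.

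Of the 7 priming factors and complexins, 3 fell. Cadps (CAPS1), which primes dense-core granules, read 8.40, 8.77 and 7.81 in chow TRAF3 knockouts, against 10.18, 9.61 and 9.35 in chow controls. Its 2.61-fold fall (-1.39 ± 0.35, adjusted p = 0.0182) had the greatest size among the 44 members, and its paralog Cadps2 stood at 0.03 (95% interval -0.29 to 0.34). Doc2b, a calcium sensor with paired C2 domains that binds Munc13 and syntaxins, read 5.37, 5.32 and 5.07 in the knockouts, against 5.98, 6.63 and 6.11 in the controls (-0.99 ± 0.21, adjusted p = 0.00708). Cplx2, a complexin, read 7.82, 8.34 and 7.54 in the knockouts, against 8.92, 8.67 and 8.41 in the controls (-0.77 ± 0.20, adjusted p = 0.0224). The groups did not overlap for any of these 3. The Munc13 genes Unc13a and Unc13b, which open syntaxin for priming, had log2 fold changes of 0.15 and -0.06, and Cplx1 one of -0.42 (adjusted p = 0.213), all with overlapping arrays.

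**Figure D2:**
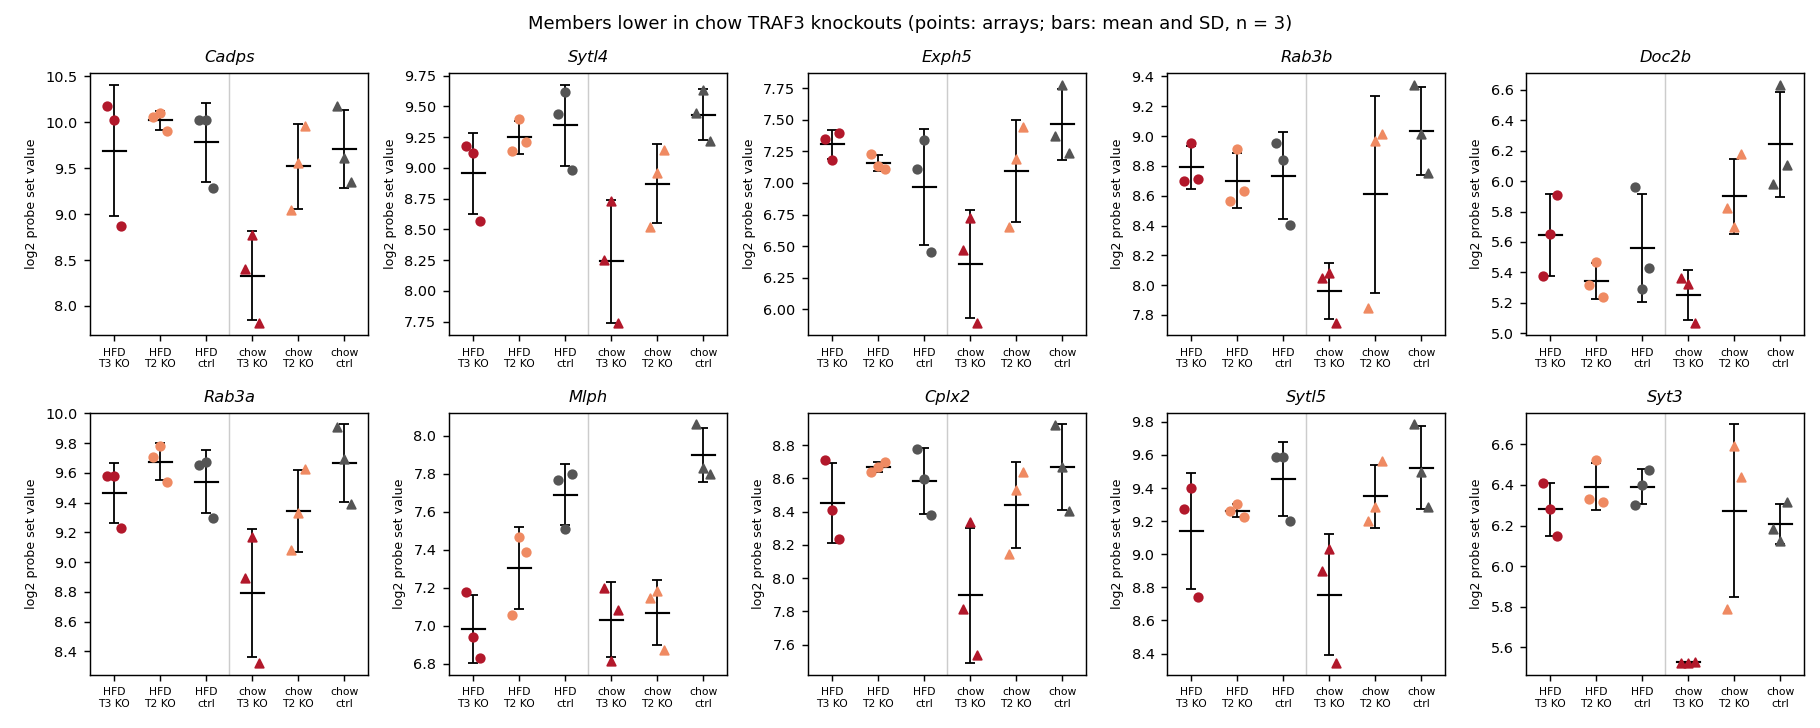
Log2 values of the 10 members that fell in TRAF3 knockouts on chow, by group (T3 KO, TRAF3 knockout; T2 KO, TRAF2 knockout; ctrl, control), with HFD groups left of the grey line and chow groups right of it. Points are arrays and bars are the mean and SD of 3 arrays; the chow TRAF3 knockout arrays lie below all 3 chow control arrays in every panel, and the vertical scales differ between panels.

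The 9 synaptotagmins had a median change of -0.49 in chow TRAF3 knockouts, and 1 of them fell. Syt3, a synaptotagmin of high calcium affinity, read 5.53 in each of the 3 knockout arrays, against 6.19, 6.13 and 6.31 in the controls (-0.68 ± 0.16, adjusted p = 0.0138). Syt7, the main calcium sensor of insulin granules, had a log2 fold change of -0.64 (95% interval -1.20 to -0.09, adjusted p = 0.134), and the arrays overlapped. Syt1, Syt13 and Syt14 were lower in all 3 knockout arrays, with log2 fold changes of -0.72, -0.49 and -0.62, without passing (adjusted p of 0.0516, 0.143 and 0.096). Syt5, a synaptotagmin of secretory vesicles, was higher in all 3 knockout arrays: it read 11.25, 11.12 and 10.78 in the knockouts, against 10.25, 10.44 and 10.10 in the controls (0.78 ± 0.28, adjusted p = 0.0863), and did not pass.

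Of the 10 SNAREs none fell and 2 rose in TRAF3 knockouts on chow. Stx4a (syntaxin 4), a plasma membrane SNARE of many cell types that also takes part in insulin release, read 6.40, 6.47 and 6.47 in the knockouts, against 5.94, 5.90 and 5.77 in the controls (0.58 ± 0.15, adjusted p = 0.0224). Vamp8, a vesicle SNARE of endosomes and of exocrine granules, read 9.50, 9.46 and 9.79 in the knockouts, against 8.76, 9.19 and 9.02 in the controls (0.59 ± 0.18, adjusted p = 0.0461). All knockout arrays of both genes lay above all control arrays. The call for Vamp8 held in 5 of the 18 fits that left out 1 array, and it was lost with array centring, repeated quantile normalization, the sex score, the ductal score and only the groups compared. Snap25 and Vamp2, which form the fusion complex of insulin granules with syntaxin 1A, were lower in all 3 knockout arrays but did not pass: Snap25 by -0.63 (95% interval -1.09 to -0.16, adjusted p = 0.0815) and Vamp2 by -0.55 (95% interval -1.02 to -0.07, adjusted p = 0.138). Stx1a, the syntaxin of that complex, had a log2 fold change of -0.19 (95% interval -0.48 to 0.10). The 4 Sec1/Munc18 and tomosyn genes did not pass: the log2 fold change was -0.28 for Stxbp3 (Munc18c), 0.20 for Stxbp2 (Munc18b), and -0.27 and -0.41 for the tomosyns Stxbp5 and Stxbp5l. Of the disassembly pair, Napa (alpha-SNAP) was lower in all 3 knockout arrays (-0.33, 95% interval -0.58 to -0.09, adjusted p = 0.0791), and Nsf had a log2 fold change of -0.05. The remaining SNAREs did not pass either, with values of 0.29 for Vamp3, 0.13 for Snap23, -0.06 for Vamp4, -0.08 for Stx2 and -0.28 for Stx3.

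Markers of several cell types moved in the same comparison. Of 11 measured beta cell markers 9 fell in chow TRAF3 knockouts, led by Slc2a2 (-2.97), Ucn3 (-2.04) and Slc30a8 (-1.98), and the mean level of the list lay between 9.53 and 10.30 in knockout arrays, against 10.94 and 11.44 in control arrays. Of 11 markers shared by all endocrine cells 4 fell, among them Resp18 (-0.68), Scg2 (-0.67) and Insm1 (-0.54). Of 5 alpha cell markers 2 fell, Slc7a2 (-1.16) and Ttr (-0.87). Of 6 genes in the list of delta, PP and ghrelin cells 1 fell, the ghrelin gene Ghrl (-0.90). Among 9 Schwann cell and neuron markers Th (-1.76) and Elavl4 (-0.79) fell and Ngfr (1.08) rose, and of 11 stellate, fibroblast and pericyte markers Rgs5 (-1.12) fell. Of 10 ductal markers 1 rose (Anxa3, 2.71), with list levels between 8.19 and 8.95 in knockout arrays, against 6.68 and 8.20 in control arrays, where control array 1 was the low one. Of 12 macrophage and other myeloid markers 3 rose (Cd68, Cd14 and Fcer1g), with deviations of the list from its overall mean between -0.22 and 0.02 in knockout arrays, against -1.06 and -0.84 in control arrays. None of 20 acinar markers passed. The part of these cell types in the members' changes was not tested beyond the covariate fits. With the ductal list as a covariate 2 members passed on chow, Doc2b (-1.01) and Mlph (-0.88), with 3.58% of all genes. Of those that no longer passed, Stx4a (0.60) and Syt3 (-0.66) stayed near their log2 fold changes without the covariate. The others were smaller than without the covariate, at -0.91 for Exph5, -0.88 for Sytl4, -0.74 for Cadps and -0.72 for Rab3b. Rab3a stood at -0.51, Cplx2 at -0.48, Sytl5 at -0.38 and Vamp8 at 0.29. With the acinar list as a covariate 21 passed, with 19.2% of all genes.

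The count of 12 also depended on single arrays. It was 3 without TRAF3 knockout array 3, 7 without TRAF3 knockout array 1, 5 without control array 1 and 7 without control array 2, all on chow. Sytl4, Mlph and Doc2b passed whichever of the 18 arrays was left out. Sytl4 did not pass with the ductal list as a covariate (limma adjusted p = 0.0668). Chow TRAF3 knockout array 3 had the lowest of the 3 knockout values for Cadps, Sytl4, Exph5, Rab3b, Doc2b, Rab3a, Cplx2 and Sytl5.

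Promoters were read from RefSeq (GRCm38.p6), which held a window for 34 of the 44 members, as the 250 bases upstream of the start on the gene's strand. Those of 4 members with changed levels are shown so that letters searched for can be seen in place. Capitals mark overlapping matches, on both strands, to the kappaB consensus bound by NF-kB proteins in Cplx2, and to TTCNNNGAA, the spaced repeat bound by STAT proteins, in Sytl4 and Vamp8. No match to either, or to the interferon-type repeat (TTTC, any 2 bases, TTTC), was present in the Mlph window.
Cplx2, chr13:54302306-54302555, plus strand: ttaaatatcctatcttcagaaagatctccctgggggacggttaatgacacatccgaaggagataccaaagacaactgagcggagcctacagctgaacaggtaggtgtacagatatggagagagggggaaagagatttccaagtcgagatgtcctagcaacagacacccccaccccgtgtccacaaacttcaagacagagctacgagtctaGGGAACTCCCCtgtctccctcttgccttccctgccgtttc
Sytl4, chrX:133981813-133982062, minus strand: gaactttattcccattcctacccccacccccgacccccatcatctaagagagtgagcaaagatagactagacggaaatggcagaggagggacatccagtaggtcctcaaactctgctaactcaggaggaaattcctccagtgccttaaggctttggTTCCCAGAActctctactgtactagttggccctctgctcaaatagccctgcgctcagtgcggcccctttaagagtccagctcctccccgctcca
Vamp8, chr6:72390668-72390917, minus strand: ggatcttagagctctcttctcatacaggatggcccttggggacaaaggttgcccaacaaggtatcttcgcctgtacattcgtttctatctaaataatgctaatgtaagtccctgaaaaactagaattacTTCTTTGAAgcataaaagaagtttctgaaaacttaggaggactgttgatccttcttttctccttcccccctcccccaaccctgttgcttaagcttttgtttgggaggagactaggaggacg
Mlph, chr1:90914850-90915099, plus strand: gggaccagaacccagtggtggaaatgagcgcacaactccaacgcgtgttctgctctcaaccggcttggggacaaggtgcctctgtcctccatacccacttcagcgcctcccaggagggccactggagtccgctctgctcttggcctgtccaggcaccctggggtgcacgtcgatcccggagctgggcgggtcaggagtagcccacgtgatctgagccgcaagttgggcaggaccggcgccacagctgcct
Both strands were searched. Of all 32851 windows of this length, 7.25% held the kappaB consensus, 7.02% held TTCNNNGAA and 2.98% held the interferon-type repeat. Among the 34 members, Cplx2, Stxbp3 and Vamp4 held the first, Sytl4 and Vamp8 the second, and Unc13a the third. A match describes the letters only.

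In TRAF2 knockouts on chow, Mlph was the 1 member that changed, where 0.298% of all genes passed in either direction and 0.018% as lower. It read 7.15, 7.19 and 6.87 in the TRAF2 knockouts, against 8.06, 7.83 and 7.80 in the controls, all knockout arrays being lower. The fall was 1.78-fold (-0.83 ± 0.15, adjusted p = 0.0277), and it did not pass without TRAF2 knockout array 2 or 3 or without control array 1 or 2. The median log2 fold change of the members was -0.06, and groups did not overlap for 3 members, with 9.49% of all genes. Sytl4 was lower in all 3 TRAF2 knockout arrays (8.52, 8.96 and 9.14, against 9.45, 9.63 and 9.22 in the controls), but did not pass (-0.56 ± 0.25, adjusted p = 0.743). Syt5 had a log2 fold change of 0.51 (95% interval -0.09 to 1.10). Both knockouts were set against the same chow controls.

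On HFD no member passed in TRAF2 knockouts by limma, where 0.252% of all genes did (0.243% higher and 0.00902% lower), and 2 members had an unadjusted p under 0.05, as had 5.71% of all genes. The member median was 0.03. Mlph read 7.06, 7.47 and 7.39 in the TRAF2 knockouts, against 7.77, 7.51 and 7.80 in the controls, so the arrays did not overlap, but it did not pass (-0.39 ± 0.15, adjusted p = 0.749). Stxbp5l (tomosyn-2), an inhibitor of SNARE assembly, was higher in all 3 TRAF2 knockout arrays, by 0.77 ± 0.32 (adjusted p = 0.799). The groups did not overlap for 8 members, with 14.7% of all genes.

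In TRAF3 knockouts on HFD 2 members passed, 1 in each direction, where 2.52% of all genes passed (1.68% higher and 0.848% lower). Stx3 (syntaxin 3), a plasma membrane SNARE that takes part in the fusion of newly arriving insulin granules, read 7.78, 7.61 and 8.51 in the knockouts, against 6.99, 7.17 and 6.90 in the controls, a 1.93-fold rise (0.95 ± 0.21, adjusted p = 0.0228). Mlph read 7.18, 6.94 and 6.83 in the knockouts, against 7.77, 7.51 and 7.80 in the controls (-0.71 ± 0.15, adjusted p = 0.0199). Neither overlapped between the groups. The member median was 0.03, and groups did not overlap for 8 members, with 16.6% of all genes. For the other members that fell on chow, the log2 fold change on HFD was -0.39 (Sytl4), -0.32 (Sytl5), -0.13 (Cplx2), -0.11 (Syt3), -0.09 (Cadps), -0.08 (Rab3a), 0.06 (Rab3b), 0.09 (Doc2b) and 0.34 (Exph5), and none of these passed.

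Some HFD members had wide spreads. Rab27b, a Rab27 form of several exocrine and blood cells, read 5.70, 4.79 and 6.67 in HFD TRAF3 knockouts, against 6.44, 6.54 and 7.71 in HFD controls, and did not pass (-1.17 ± 0.43, adjusted p = 0.186). Syt4, a synaptotagmin of low calcium affinity, read 10.57, 10.38 and 9.85 in the knockouts, against 9.80, 9.70 and 8.67 in the controls (0.88 ± 0.30, adjusted p = 0.153). Array 3 of each group was the highest for Rab27b and the lowest for Syt4. These HFD arrays, TRAF3 knockout 3 and control 3, also had the highest acinar list levels of the 18 (0.81 and 0.91 above the mean of all arrays), and the lowest member means of the HFD arrays, 8.03 and 8.01. Without both arrays no member passed in TRAF3 knockouts on HFD: Stx3 stood at 0.61 (adjusted p = 0.159) and Mlph at -0.58 (adjusted p = 0.157). The count was also 0 without HFD control 1 and without HFD control 3, and without TRAF3 knockout 2 Stx3 alone passed (1.13). Without TRAF3 knockout 3 neither Stx3 nor Mlph passed, and Rab27b did (-1.65, adjusted p = 0.0394). Of 12 myeloid markers 3 fell in TRAF3 knockouts on HFD, with list levels between 6.04 and 7.23 in knockout arrays, against 7.13 and 7.99 in control arrays. Acta2 of the stellate, fibroblast and pericyte list (-2.58) and Cdh19 of the Schwann cell and neuron list (-0.99) fell too. The ductal marker Krt8 (1.94) and Ngfr (1.30) rose. The part of these cells was not tested beyond the covariate fits.

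Averaged over both knockouts and both diets, Mlph was the 1 member that passed, where 2.8% of all genes did (1.84% higher and 0.96% lower). The log2 fold change was -0.70 ± 0.09 (adjusted p = 0.00052), and Mlph passed whichever array was left out. All 12 knockout arrays read 6.82 to 7.47, against 7.51 to 8.06 in the 6 controls, so the knockouts did not overlap the controls. Sytl4 came next to the threshold at -0.56 ± 0.15 (adjusted p = 0.0584).

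**Figure D3:**
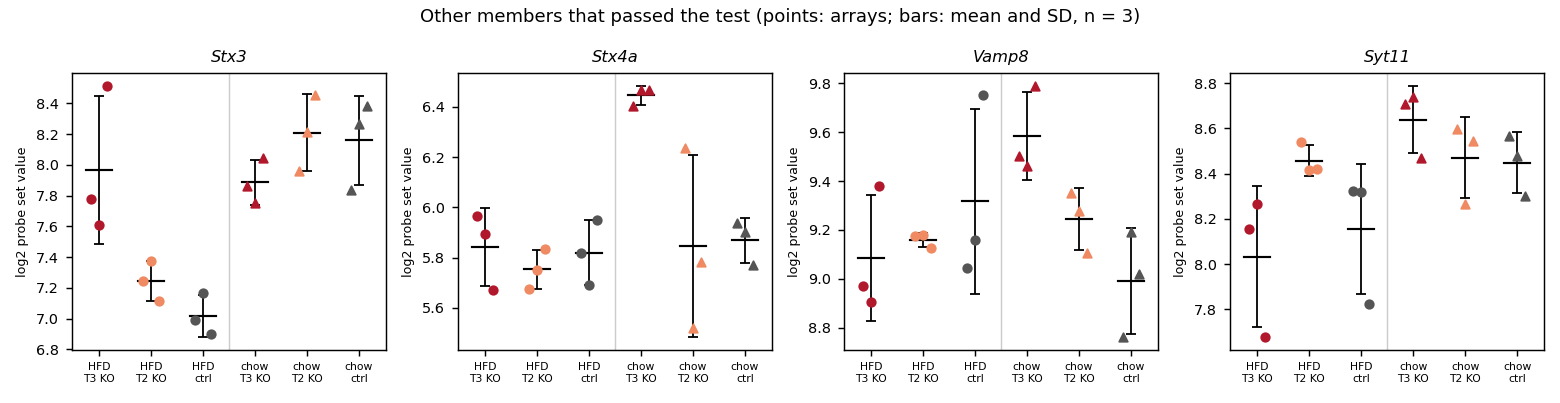
Log2 values of the other 4 members that passed in at least 1 comparison, by group (T3 KO, TRAF3 knockout; T2 KO, TRAF2 knockout; ctrl, control), with HFD groups left of the grey line. Points are arrays and bars the mean and SD of 3 arrays; for Stx3 the HFD TRAF2 knockouts and HFD controls lie at 6.90 to 7.38, below all chow arrays, while HFD TRAF3 knockouts lie at 7.61 to 8.51.

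HFD against chow, within a genotype, changed few members outside the TRAF3 knockouts. In controls Stx3 was the 1 member that passed, where 0.884% of all genes did (0.523% higher and 0.361% lower), and groups did not overlap for 8 members, with 19.2% of all genes. It read 6.99, 7.17 and 6.90 on HFD, against 7.83, 8.27 and 8.38 on chow (-1.14 ± 0.21, adjusted p = 0.0226). In TRAF2 knockouts Stx3 was again the 1 member that passed, where 1.96% of all genes did (1.08% as lower), and groups did not overlap for 7 members, with 23.9% of all genes. It read 7.24, 7.38 and 7.12 on HFD against 7.96, 8.21 and 8.46 on chow (-0.96 ± 0.21, adjusted p = 0.026). In TRAF3 knockouts Stx3 read 7.78, 7.61 and 8.51 on HFD, against 7.86, 7.75 and 8.04 on chow, with overlapping arrays (0.08 ± 0.21). All HFD controls showed the female pattern of Xist and Y-linked genes, against 1 of 3 chow controls. Among knockouts, 2 of 3 arrays of each HFD group and 1 of 3 of each chow group showed it. Sex was therefore also unbalanced between knockouts and controls on HFD, and between diets within each knockout. The fall of Stx3 in controls did not pass with the sex score as a covariate (-1.07). It also did not pass when any of 5 of the 6 control arrays was left out, chow control 1 being the exception. In TRAF2 knockouts it did not pass without any 1 of the HFD arrays or without chow array 2 or 3. Of 12 myeloid markers 7 rose with HFD in controls, with list levels of 7.13 to 7.99 on HFD and 5.91 to 6.14 on chow, and their part in the fall of Stx3 was not tested. In TRAF2 knockouts 5 of the 12 rose with HFD, led by Mrc1 (2.94), with list levels of 7.89 to 7.95 on HFD and 6.22 to 7.42 on chow, and Acta2, a pericyte and stellate cell marker, rose by 3.52. Their part was not tested there either.

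In TRAF3 knockouts 5 members passed between diets, 3 higher and 2 lower on HFD, where 8.67% of all genes passed (2.66% higher and 6.01% lower), and groups did not overlap for 13 members, with 25.3% of all genes. Cadps read 10.18, 10.02 and 8.87 on HFD, against 8.40, 8.77 and 7.81 on chow (1.37 ± 0.35, adjusted p = 0.0233). Exph5 read 7.35, 7.18 and 7.40 on HFD, against 6.47, 6.72 and 5.89 on chow (0.95 ± 0.25, adjusted p = 0.028). Syt3 read 6.41, 6.28 and 6.15 on HFD, against 5.53 in each chow array (0.75 ± 0.16, adjusted p = 0.0101). These 3 were among the members that fell in TRAF3 knockouts on chow, and the chow knockout arrays are the same in both comparisons. Stx4a read 5.96, 5.90 and 5.67 on HFD, against 6.40, 6.47 and 6.47 on chow (-0.60 ± 0.15, adjusted p = 0.0218). Syt11, a synaptotagmin that does not bind calcium, read 8.16, 8.26 and 7.68 on HFD, against 8.71, 8.74 and 8.47 on chow (-0.61 ± 0.17, adjusted p = 0.0363). Arrays of the 2 diets did not overlap for any of the 5. Of the 11 beta cell markers 9 rose on HFD in TRAF3 knockouts, with list levels of 10.68 to 11.22 on HFD and 9.53 to 10.30 on chow. Th (1.16), Ttr (0.83) and Ghrl (0.83) rose as well. The ductal marker Anxa3 (-2.96), the myeloid marker Cd68 (-1.74) and the endothelial markers Cdh5 (-0.90) and Esam (-0.82) fell, as did Pam (-0.58). The part of these cell types was not tested beyond the covariate fits. Syt3 passed whichever array was left out; the count was 1 without chow TRAF3 knockout 1 or 3 and 2 without HFD TRAF3 knockout 1 or 2.

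The test of the difference between diets, the TRAF3 knockout by diet interaction, passed for 3 members, all positive, where 2.52% of all genes passed in that direction, 3.29% in the other and 5.8% in either. The knockout effect on Exph5 was higher on HFD than on chow by 1.44 ± 0.35 (adjusted p = 0.0267), with effects of 0.34 on HFD and -1.10 on chow. For Stx3 the difference was 1.22 ± 0.30 (adjusted p = 0.0256), with effects of 0.95 on HFD and -0.28 on chow. For Doc2b it was 1.08 ± 0.29 (adjusted p = 0.0411), with effects of 0.09 on HFD and -0.99 on chow. Doc2b itself read 5.37, 5.65 and 5.91 in HFD knockouts and 5.96, 5.29 and 5.43 in HFD controls, so that the HFD controls lay below the chow controls (5.98, 6.63 and 6.11). Cadps (1.30 ± 0.49, adjusted p = 0.131), Rab3b (1.13 ± 0.36, adjusted p = 0.0771) and Sytl4 (0.80 ± 0.35, adjusted p = 0.192) did not pass, so for these a difference between diets was not shown. Markers passed the same interaction: of 12 myeloid markers 6 were lower, among them Cd68 (-3.26) and Mrc1 (-2.50), of 11 beta cell markers Mafa (2.23), Slc30a8 (1.64) and Pdx1 (1.38) were higher, Ghrl (1.36) was higher and the ductal marker Anxa3 (-2.91) lower. Their part in the members' interaction was not tested. Doc2b held its call in 6 of the 18 fits that left out 1 array, and lost it with the replicate block, with the sex score and with only the groups compared, where Stx3 lost its call too. None of the 3 passed without chow TRAF3 knockout 1 or 3, without HFD control 3 or without chow control 2. The count was 1 without chow control 3, 5 without chow TRAF2 knockout 1 and 6 without HFD TRAF3 knockout 3. Without HFD TRAF3 knockout 3 and HFD control 3 together none of the 3 passed and Vamp8 did (-0.76, adjusted p = 0.0441), at 1.14 (Exph5), 0.89 (Stx3) and 0.88 (Doc2b). For TRAF2 knockouts no member passed this test by limma (0.0% of all genes), and 1 had an unadjusted p under 0.05, as had 2.83% of all genes.

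**Figure D4:**
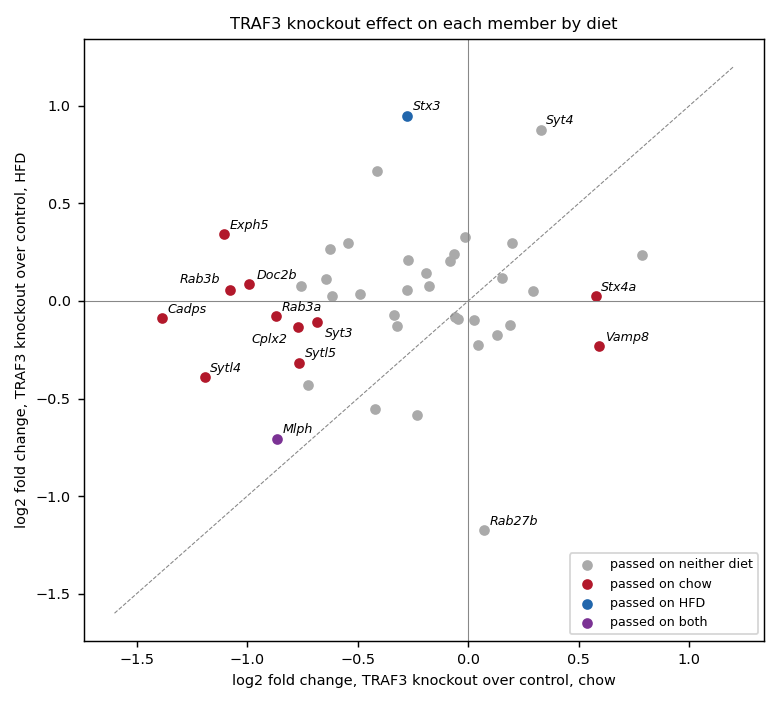
Log2 fold change of TRAF3 knockout over control for each of the 44 members on chow (horizontal axis) and on HFD (vertical axis), with the line of equal change dashed. Colours show on which diet the change passed; Mlph, at -0.71 on HFD and -0.86 on chow, passed on both, and the other 9 members that fell on chow lie between -0.39 and 0.34 on HFD.

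Set directly against each other on chow, TRAF3 and TRAF2 knockouts differed in 1 member, where 2.01% of all genes passed (0.573% as lower), and groups did not overlap for 12 members, with 21.5% of all genes. Syt3 read 5.53 in each TRAF3 knockout array, against 5.79, 6.59 and 6.44 in the TRAF2 knockouts (-0.75 ± 0.16, adjusted p = 0.0274). Cadps was lower in all 3 TRAF3 knockout arrays (8.40, 8.77 and 7.81, against 9.04, 9.56 and 9.96 in the TRAF2 knockouts), but did not pass (-1.19 ± 0.35, adjusted p = 0.0848). Rab3b read 8.05, 8.08 and 7.74 in the TRAF3 knockouts, against 7.85, 8.97 and 9.01 in the TRAF2 knockouts. TRAF2 knockout 1 thus lay within the TRAF3 knockout range for Rab3b, and also for Exph5 (6.65). Its lymphocyte list level was 7.94, against 5.65 and 4.83 in the rest of its group. Its beta cell list level was 10.10, against 10.94 and 11.14 in the rest of its group and 9.53 to 10.30 in chow TRAF3 knockouts. The part of these cells was not tested. Without TRAF2 knockout 1, 5 members passed: Syt3 (-0.99), Cadps (-1.43), Rab3b (-1.03), Exph5 (-0.95) and Stx4a (0.79). The count was 3 without HFD TRAF3 knockout 3, and 0 without TRAF2 knockout 2 or 3 or any 1 of the chow TRAF3 knockouts. On HFD no member passed by limma between TRAF3 and TRAF2 knockouts (1.05% of all genes, 0.627% higher and 0.424% lower), and 2 had an unadjusted p under 0.05, as had 11.2% of all genes.

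Other genes of regulated exocytosis, 66 measured in all, were read beside the members. In chow TRAF3 knockouts 7 of the 66 fell, where 4.69% of all genes fell, and 4 rose, where 6.33% of all genes rose, so the share that rose was close to that over all genes. The median was -0.09. Those that fell included release-site scaffolds: Rimbp2 read 8.61, 9.16 and 8.26 in the knockouts, against 10.81, 10.04 and 9.69 in the controls (-1.50 ± 0.34, adjusted p = 0.0115), and Erc2 changed by -1.41 (adjusted p = 0.00393). Sytl2, a Rab27 effector related to Sytl4 and Sytl5, fell by 1.25, and Rims3, a short relative of Rims2, fell by 1.16. The Rab GTPase Rab37 changed by -1.14 (limma adjusted p = 0.029). Of those that rose, Stx11, a syntaxin known from lymphocyte granule release, read 6.94, 6.58 and 7.19 in the knockouts, against 5.06, 5.80 and 6.05 in the controls (1.27 ± 0.27, adjusted p = 0.00799).

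In this wider list Syt10 and Rph3a were higher in both knockouts on HFD, each set against the same HFD controls. Rph3a (rabphilin), a Rab3 and Rab27 effector, read 7.60, 7.38 and 6.54 in HFD TRAF3 knockouts and 7.47, 7.13 and 7.38 in HFD TRAF2 knockouts, against 5.39, 5.47 and 5.23 in HFD controls. It rose by 1.81 ± 0.30 in TRAF3 knockouts (adjusted p = 0.00388) and by 1.97 ± 0.30 in TRAF2 knockouts (adjusted p = 0.00682). On chow it read 5.72, 5.84 and 5.36 in TRAF3 knockouts and 6.16, 6.34 and 7.34 in TRAF2 knockouts, against 5.23, 5.44 and 5.94 in controls. The TRAF3 knockouts overlapped the controls and the TRAF2 knockouts lay above them, but neither passed. Syt10, a calcium sensor of growth factor release in neurons, read 8.33, 8.16 and 6.77 in HFD TRAF3 knockouts and 8.00, 8.02 and 8.09 in HFD TRAF2 knockouts, against 4.69, 4.32 and 4.53 in HFD controls. Its HFD control values lay below every array's median, so the size of this rise (3.24 in TRAF3 and 3.53 in TRAF2 knockouts) rests on a dim baseline. On chow Syt10 read 6.18, 6.26 and 5.63 in TRAF3 knockouts and 7.33, 7.94 and 8.53 in TRAF2 knockouts, against 4.32, 4.23 and 5.65 in controls, and it passed in the TRAF2 knockouts (3.20, adjusted p = 0.00427).

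Within groups, the members' levels moved with exocrine marker lists from array to array. Each gene's deviation from its group mean was set against that of the list over 18 arrays, with permutation within groups and adjustment over 88 relations. With the acinar list 14 members passed as negative and 3 as positive, and with the ductal list 13 as negative and 2 as positive. By unadjusted permutation p under 0.05, 34.1% of the members were negative and 6.82% positive with the acinar list, against 12.2% and 12.2% of all genes. With the ductal list 38.6% of the members were negative and 4.55% positive, against 13.2% and 10.7% of all genes. Vamp2 had r = -0.941 (rho = -0.934, permutation adjusted p = 0.00997) and Snap25 r = -0.844 (rho = -0.891, permutation adjusted p = 0.00997) with the ductal list. Without the 2 arrays farthest from the median, r was -0.889 and -0.877. Rab27b had r = 0.882 with the acinar list (rho = 0.882, permutation adjusted p = 0.00997), and Vamp8 had r = 0.759 with the ductal list (rho = 0.870, permutation adjusted p = 0.0126), with r of 0.787 and 0.739 without those arrays. Of the members that fell in chow TRAF3 knockouts, Rab3a and Sytl5 passed with both lists (r between -0.612 and -0.838) and Cadps with the ductal list (r = -0.778). By r, Sytl4, Exph5, Rab3b, Cplx2, Syt3, Mlph and Doc2b passed with neither. For Mlph and Doc2b r lay between -0.147 and 0.095, and for the others of these between -0.642 and 0.128. Without the 2 farthest arrays, r with the acinar list was -0.441 for Doc2b and 0.275 for Mlph.

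**Figure D5:**
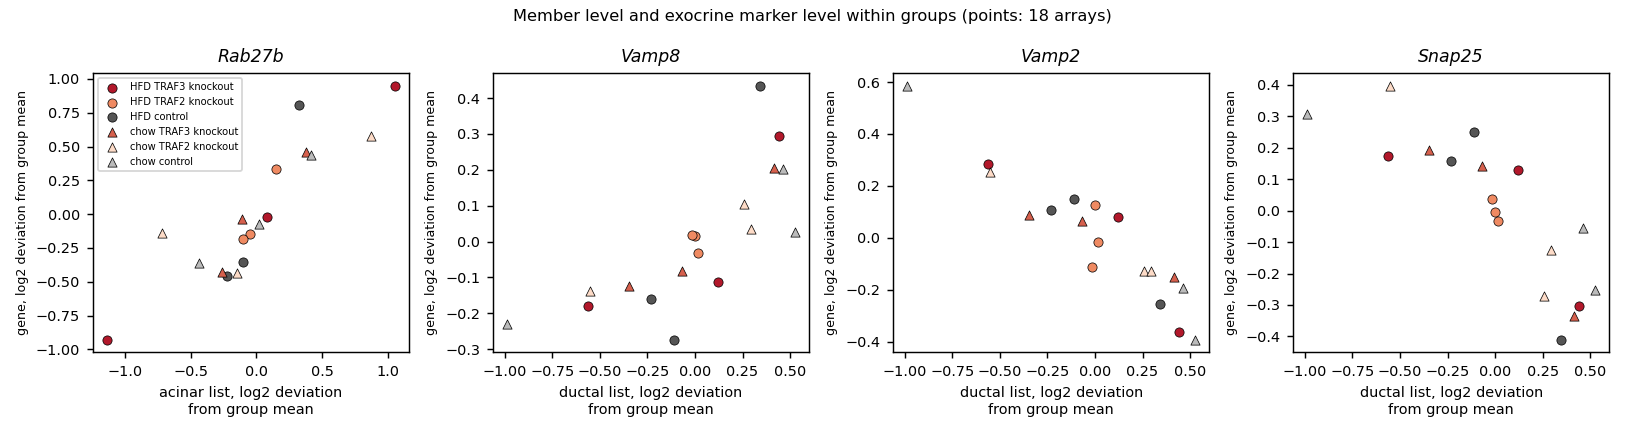
Deviation of 4 members from their group mean (vertical axis, log2) against the deviation of the acinar list (Rab27b) or the ductal list (Vamp8, Vamp2, Snap25) from its group mean (horizontal axis, log2). Each point is 1 of 18 arrays, with groups by shape and colour; Rab27b and Vamp8 run upward (r = 0.882 and 0.759), Vamp2 and Snap25 downward (r = -0.941 and -0.844).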

How the data were processed

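The authors deposited 1 log2 value per probe set and array, and the submitters' processing notes name RMA, which normalizes between arrays and summarises probes on the log2 scale, and limma, without versions. The genome build behind these values is not given in the sources used here. The values were used as deposited. Of 41345 probe sets, 23521 had exactly 1 symbol in the platform annotation, which gave 22180 genes. All arrays entered 1 limma fit of 6 group means (limma 3.58.1, R 4.3.3, eBayes defaults, 12 residual and 3.69 prior degrees of freedom), with 12 contrasts, two-sided tests and Benjamini-Hochberg adjustment over all genes. The fit was tested on simulated data. The number of arrays limits the precision. Within-group relations used 100000 permutations (numpy 2.4.6), for the members and for all genes.

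Members, gene lists and marker lists were chosen with earlier results of these data known. Values in every array are given for members passing in a comparison. Other exocytosis genes are named only where they passed, at most the 6 largest by size in a comparison. Syt4, Rab27b and other members that did not pass, some arrays singled out, and the 4 promoters and 3 motifs were chosen after values were seen; further motifs were looked at and are not reported. The labels do not say whether the same replicate number in different groups marks paired samples, and the main fit did not pair them. Deviations of same-numbered arrays correlated at -0.549 to 0.529 (median 0.029, 45 pairs). Replicate 1 alone had high Xist in chow TRAF3 knockouts, TRAF2 knockouts and controls (9.94, 10.57 and 11.28). It alone had low Xist in HFD TRAF3 and TRAF2 knockouts (5.03 and 4.49). Number and sex were thus linked in opposite directions in these groups, so a median over both diets cannot exclude pairing. TRAF3's own transcript was left out. Alternatives were array centring, repeated quantile normalization, eBayes with trend and robust options, 11090 brighter genes, the mean of all probe sets, only the groups compared, a replicate block, and sex, ductal and acinar scores as covariates, plus each array left out. Leaving out HFD TRAF3 knockout 3 and HFD control 3 together was chosen after seeing the data.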

Additional observations from a re-analysis of the deposited data

Results flagged for a closer look

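The effect of TRAF3 loss differed between diets for 3 members, by the interaction term in limma. The difference, HFD effect minus chow effect, was 1.44 for Exph5, 1.22 for Stx3 and 1.08 for Doc2b on the log2 scale. In Exph5 and Doc2b the effect was 0.34 and 0.09 on HFD, against -1.10 and -0.99 on chow, and in Stx3 it was 0.95 on HFD, against -0.28 on chow. Each of the 3 lost its call without chow TRAF3 knockout 1 or 3, without HFD control 3 or without chow control 2. Doc2b held its call in 6 of the 18 fits that left out 1 array.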

How the results depend on the processing

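Counts of members that passed are set against those in the report, with the share of all genes that passed under the same setting in parentheses; the cause of a shift was not tested. With only the groups compared, in fits with fewer arrays, the count was 0 for TRAF2 knockouts on chow (0.0%), TRAF3 knockouts on HFD (0.649%), HFD against chow in controls (0.352%) and TRAF3 against TRAF2 knockouts on chow (0.0135%), and 2 for HFD against chow in TRAF3 knockouts (2.74%). With the ductal score it was 2 for TRAF3 knockouts on chow (3.58%), 5 on HFD (5.0%), 2 for both knockouts (2.94%), 4 for HFD in controls (4.39%), 3 for HFD in TRAF3 knockouts (4.27%) and 0 for TRAF3 against TRAF2 on chow (0.221%). With the acinar score it was 21 for TRAF3 on chow (19.2%), 4 on HFD (4.33%, member median -0.18), 8 for both knockouts (6.7%), 2 for HFD in TRAF2 knockouts (5.28%), 12 for HFD in TRAF3 knockouts (13.2%), and 4 on chow (4.04%) and 2 on HFD (2.92%) for TRAF3 against TRAF2. Centring gave 2 for both knockouts (2.87%), 2 for HFD in controls (2.2%) and 2 for TRAF3 against TRAF2 on chow (2.21%). Repeated quantile normalization gave 2 for both knockouts (3.38%), 8 for HFD in TRAF3 knockouts (9.27%) and 2 for TRAF3 against TRAF2 on chow (2.68%). Brighter genes alone, which leaves out Doc2b and Rims1, gave 2 for both knockouts (6.72%), 2 for HFD in controls (2.76%), 5 for the TRAF3 interaction (16.1%) and 2 for TRAF3 against TRAF2 on chow (7.15%). The sex score gave 0 for HFD in controls (0.216%). With the replicate block, 2 members passed for both knockouts (2.83%) and 15 for TRAF3 knockouts on chow (11.7%). Whether a replicate number marks paired samples is not known from the labels. Without HFD TRAF3 knockout 3 and HFD control 3, chosen after seeing the data, the count was 0 for TRAF3 on HFD (1.97%), 2 for both knockouts (3.19%), 12 for HFD in TRAF3 knockouts (13.1%), 1 for the TRAF3 interaction (5.24%) and 3 for TRAF3 against TRAF2 on chow (4.4%), and the member median for TRAF3 against TRAF2 on HFD was 0.0709. Leaving out 1 of the 18 arrays at a time, the counts ranged from 3 to 15 for TRAF3 on chow, 0 to 2 for TRAF3 on HFD, 0 to 1 for TRAF2 on chow, 1 to 3 for both knockouts, 0 to 2 for HFD in controls, 0 to 1 in TRAF2 knockouts, 1 to 7 in TRAF3 knockouts, 0 to 6 for the TRAF3 interaction and 0 to 5 for TRAF3 against TRAF2 on chow. They stayed at 0 for TRAF2 on HFD, for the TRAF2 interaction and for TRAF3 against TRAF2 on HFD. The medians ranged from -0.35 to -0.22 for TRAF3 on chow and from -0.11 to 0.051 on HFD, from -0.17 to -0.04 for TRAF2 on chow and -0.02 to 0.09 on HFD, and from -0.157 to 0.0709 for TRAF3 against TRAF2 on HFD. Of 27 calls, 5 passed whichever array was left out.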
